A study of Mus musculus with 67 samples.

Results

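Messenger RNA of 10 myosin heavy chain genes was followed through irradiated mouse crypts and intestinal organoids, out of 29579 genes in the deposited expression table. The 10 were Myh9, Myh10, Myh14, Myo18a, Myo1a, Myo1d, Myo1e, Myo5b, Myo6 and Myo7b, and every one of them has a row in the table. They were chosen by the 3-day crypt values of this same table, in which Myh9 and Myo18a were among the largest rises, so those 3-day values are a description and carry no test. No numeric threshold was part of that choice. Crypts came from the proximal small intestine of C57BL/6 female mice of 8 weeks. Mice were left unirradiated (Normal) or received 12 Gy (IR), alone or with daily gavage of VPA at 40 mg per kg and EPZ6438 at 0.6 mg per kg (IR+VE). VPA inhibits histone deacetylases and EPZ6438 inhibits EZH2, the methyltransferase of histone H3 lysine 27. Crypts were taken 1, 2, 3 and 5 days after irradiation, with 2 libraries in each of the 9 groups.

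Organoids were grown from crypts of mice aged 6 to 12 weeks, whose genotype is not given in the labels. They were kept in ENR medium (EGF, noggin and R-Spondin 1) or in 8C medium (VPA at 500 µM, EPZ6438 at 2 µM, LDN193189, GSK3iXV, Pexmetinib, EGF, bFGF and R-Spondin 1). All organoid groups therefore shared EGF and R-Spondin 1, except for the group grown without EGF. The 8C and ENR conditions had 7 libraries each, as did 8C without both VPA and EPZ6438 (8C-VE) and 8C without EPZ6438 (8C-E). There were 6 libraries of 8C without VPA (8C-V), and 3 each of ENR with both compounds added (ENR+VE) and of 8C without the GSK3 inhibitor (8C-GSK3i), Pexmetinib (8C-Pex), bFGF (8C-bFGF) or EGF (8C-EGF). The labels number the libraries but do not say that they came from separate animals or cultures, although the study's figure legends count mice for some of them, so p-values measure the spread between these libraries, which may in part be technical.

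Most myosin heavy chains are motors that hydrolyse ATP and pull on actin filaments. Myh9, Myh10 and Myh14 encode the heavy chains of nonmuscle myosin IIA, IIB and IIC, which pair into bipolar filaments and give an epithelium its contractile belts. Myo18a encodes a myosin related to that class, known for a role at the Golgi apparatus. Myo1a, Myo1d, Myo6 and Myo7b act in the brush border of enterocytes: Myo1a ties the microvillar membrane to the actin core, Myo7b sits in the complex that links the tips of microvilli, and Myo6 moves towards the base of actin filaments. Myo1d is another membrane-bound class I motor of the brush border. Myo1e, a class I motor, works in endocytosis and at cell junctions, and Myo5b carries Rab11 vesicles to the apical membrane.

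Only Myh10 among the nonmuscle myosin II genes passed the tests in organoids below, so the promoters of the 3 paralogues are shown together. Each is the 250 bases before the start that RefSeq annotates on GRCm38.p6, written 5′ to 3′ on the gene's strand with CG dinucleotides in capitals.
Myh9, chr15:77842176-77842425 (-): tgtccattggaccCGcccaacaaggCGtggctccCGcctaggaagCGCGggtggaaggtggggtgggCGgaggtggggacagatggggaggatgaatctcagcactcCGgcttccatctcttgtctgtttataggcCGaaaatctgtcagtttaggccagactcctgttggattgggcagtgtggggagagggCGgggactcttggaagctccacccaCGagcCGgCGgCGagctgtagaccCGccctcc
Myh10, chr11:68691665-68691914 (+): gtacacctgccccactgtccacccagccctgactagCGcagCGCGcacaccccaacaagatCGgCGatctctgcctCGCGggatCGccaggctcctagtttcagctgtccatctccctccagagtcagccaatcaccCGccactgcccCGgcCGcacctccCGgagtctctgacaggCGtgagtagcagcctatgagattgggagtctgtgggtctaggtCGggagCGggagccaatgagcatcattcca
Myh14, chr7:44670844-44671093 (-): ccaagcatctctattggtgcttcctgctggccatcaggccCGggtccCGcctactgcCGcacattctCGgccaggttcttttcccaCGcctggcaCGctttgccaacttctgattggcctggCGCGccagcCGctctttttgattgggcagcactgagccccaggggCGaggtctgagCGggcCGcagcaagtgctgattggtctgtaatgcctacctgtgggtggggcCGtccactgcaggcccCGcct
CG, which reads the same on both strands, occurs 14 times in the Myh9 window, 15 times in that of Myh10 and 14 times in that of Myh14. Of 32851 such windows 92.1% hold at least 1 CG, and the median window holds 6. The windows of the brush border gene Myo1a and of Myo18a were poorer, with 1 CG for Myo1a and 3 and 4 for the start sites of Myo18a, while Myo6 had 18 and Myo1e 14. Windows for Myo1d, Myo5b and Myo7b were not used here.

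On mm10, Myh9 spans 77760587 to 77842175 of chromosome 15, Myh10 spans 68691559 to 68816632 of chromosome 11 and Myh14 spans 44605803 to 44670843 of chromosome 7. Myo18a (77763246 to 77865980) and Myo1d (80482126 to 80780025) also lie on chromosome 11, Myo1e (70207350 to 70399766) and Myo6 (80165031 to 80311729) on chromosome 9, and Myo1a (127705170 to 127720940) on chromosome 10. These spans are those of GENCODE, whose Myh10 starts upstream of the RefSeq start and so takes in the window printed above. The exons are long. The summed exon length was 16037 bp for Myo18a, 12928 bp for Myh9, 12078 bp for Myo6, 10458 bp for Myh10, 9766 bp for Myo5b and 7273 bp for Myh14, and it was 6621 bp for Myo7b, 6465 bp for Myo1d, 5704 bp for Myo1e and 3714 bp for Myo1a. The median gene of the table has 2633 bp.

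Values are TPM (transcript abundance scaled for gene length and library size), and differences are on the log2(TPM + 1) scale, which draws low genes towards 0. A gene was called changed at a Benjamini-Hochberg adjusted p under 0.05 in limma and a change of at least 2-fold. TPM keeps no record of reads, so depth is unknown. In crypts the 10 epithelial markers tested were all at a mean of 1 TPM or more, with sums of 4433 to 9553 TPM, while none of 8 smooth muscle markers and none of 7 endothelial markers reached 1 TPM. Of 12 immune markers 8 did, with sums of 144 and 232 TPM in Normal and 6.30 TPM (IR day 5) to 232 TPM over all crypt libraries. Of 8 fibroblast markers 2 did, with sums of 7.48 to 43.9 TPM. Intestinal stem cell markers summed to 243 and 455 TPM in Normal and to 18.1 and 23.4 TPM in IR crypts of day 3. Mitochondrial mt-Atp8 ranged from 52862 to 243105 TPM in crypts but reached at most 14.8 TPM in organoids, so levels in crypts and organoids are given separately.

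In Normal crypts the 9 genes above 1 TPM differed widely in level. Myo1a was the most abundant at 269 and 251 TPM, followed by Myh14 at 90.2 and 101 TPM. Myo6, Myo1d, Myo5b, Myh9, Myo7b and Myo18a had means of 21.4 to 46.9 TPM, with values that overlapped between neighbours. Myo1e was at 4.63 and 5.49 TPM. Myh10 was at 0.104 and 0.263 TPM, stayed at or below 0.609 TPM in all 18 crypt libraries, was listed at 0 in none, and was left out of the crypt tests, which took genes whose mean reached 1 TPM. The nonmuscle myosin II message of crypts was thus almost wholly that of Myh14 and Myh9.

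**Figure D1:**
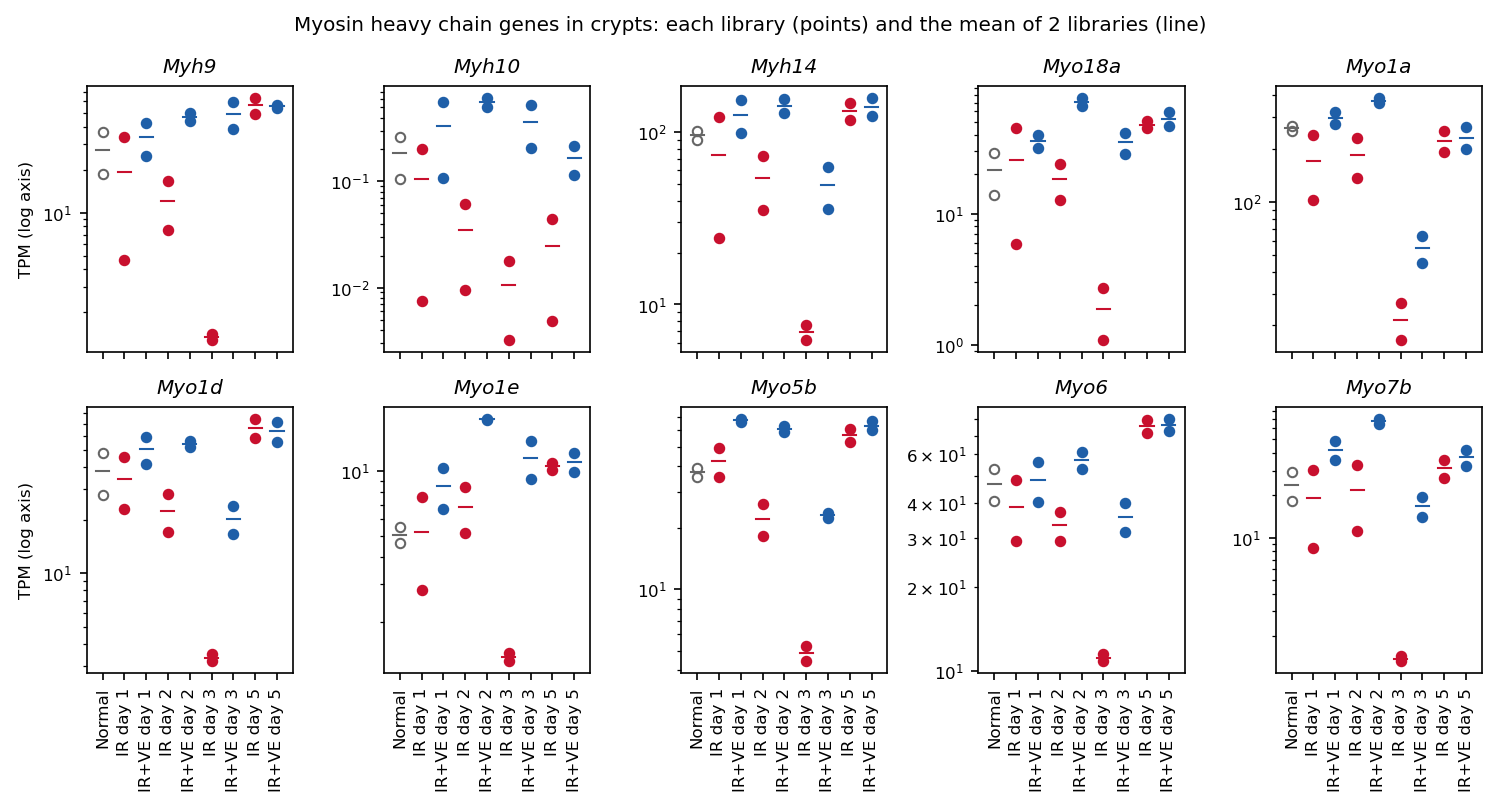
TPM of the 10 genes (log axes, a separate scale for each gene) in the 18 crypt libraries: points are libraries, lines the mean of 2, grey Normal, red IR, blue IR+VE. Every gene has its lowest mean in the IR day 3 group (1.34 TPM for Myh9), and for Myh10, at 0.0105 TPM there, the IR libraries of days 1, 2 and 5 overlap it.

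For nonmuscle myosin IIA and IIC, as for the other genes tested, the IR libraries of day 3 held the lowest levels. Myh9 was at 18.8 and 36.5 TPM in Normal crypts and at 34.0 and 4.62 TPM on day 1 after IR, at 16.6 and 7.52 TPM on day 2, at 1.28 and 1.41 TPM on day 3 and at 63.3 and 49.3 TPM on day 5. In IR+VE crypts Myh9 was at 42.4 and 24.8 TPM on day 1, 43.6 and 50.1 TPM on day 2, 59.7 and 38.6 TPM on day 3 and 57.0 and 54.4 TPM on day 5. The IR+VE libraries stayed within 24.8 to 59.7 TPM at every time. By mean, Myh9 ordered from IR day 5 (56.3 TPM) through IR+VE day 5 (55.7), day 3 (49.1) and day 2 (46.9) and day 1 (33.6), to Normal (27.6), IR day 1 (19.3), IR day 2 (12.1) and IR day 3 (1.34), and of these neighbours IR+VE day 2 and day 1, and IR day 2 and IR day 3, had values that did not overlap.

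Myh14 was at 123 and 24.2 TPM on day 1 after IR, at 72.8 and 35.2 TPM on day 2, at 7.64 and 6.19 TPM on day 3 and at 148 and 117 TPM on day 5. With VPA and EPZ6438 it was at 153 and 98.2 TPM, 129 and 155 TPM, 62.8 and 35.6 TPM, and 157 and 123 TPM on the same days. The IR+VE libraries of day 3 were below both Normal libraries for Myh14, whereas for Myh9 they were above both. Myh9 made up 21.8% ± 6.54 (SD, n = 2) of the summed TPM of Myh9, Myh10 and Myh14 in Normal crypts and 16.4% ± 2.95 (SD, n = 2) in IR crypts of day 3, but 50.1% ± 2.15 (SD, n = 2) in IR+VE crypts of day 3. In the other 6 groups its mean share lay between 18.1% and 29.8%. The share of Myh14 was 49.4% ± 2.52 (SD, n = 2) in IR+VE crypts of day 3 and between 70.1% and 83.5% elsewhere. These shares were noticed after the values were seen and use the 3-day libraries that chose the genes, so they are given with no test.

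**Figure D2:**
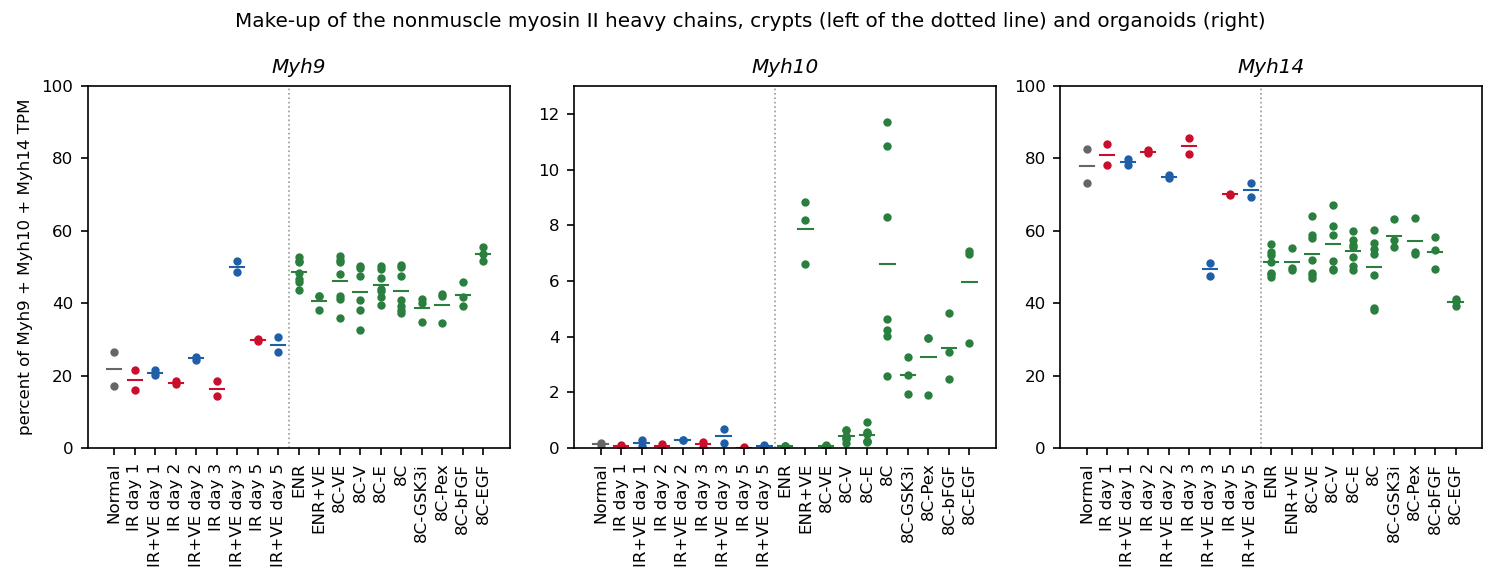
Percent of the summed TPM of the 3 nonmuscle myosin II genes held by each, per library (points) with group means (lines), in crypts and, right of the dotted line, organoids; the axis of Myh10 ends at 13%. IR+VE day 3 is the crypt group in which Myh9 and Myh14 are near parity, and Myh10 reaches 6.62% in 8C and 7.88% in ENR+VE organoids.

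Myo18a, the other gene that led to the choice, was at 14.0 and 28.8 TPM in Normal crypts. It was at 45.1 and 5.82 TPM on day 1 after IR, at 24.0 and 12.7 TPM on day 2, at 2.69 and 1.08 TPM on day 3 and at 50.3 and 45.0 TPM on day 5. In IR+VE crypts it was at 39.8 and 31.7 TPM, 65.9 and 75.8 TPM, 41.3 and 28.5 TPM, and 46.1 and 59.4 TPM on those days. Every IR+VE library held more Myo18a than the lower Normal library, and the day 2 libraries held the most of any group.

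Among the brush border motors Myo1a was the most abundant. It was at 239 and 102 TPM on day 1 after IR, 230 and 136 TPM on day 2, 26.7 and 16.5 TPM on day 3 and 252 and 191 TPM on day 5. Under IR+VE it was at 324 and 274 TPM, 360 and 385 TPM, 64.4 and 44.8 TPM, and 264 and 198 TPM. On day 3 both IR+VE libraries lay above both IR libraries but below all 14 libraries of Normal and of days 1, 2 and 5. Myo7b was at 18.3 and 29.3 TPM in Normal crypts, at 30.2 and 8.41, 32.6 and 11.1, 1.33 and 1.44, and 35.8 and 26.5 TPM on days 1, 2, 3 and 5 after IR. Under IR+VE Myo7b was at 48.4 and 36.0, 64.2 and 70.0, 19.6 and 14.0, and 42.3 and 32.2 TPM. Its day 2 values under IR+VE exceeded those of every other library.

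Myo6 and Myo1d were highest on day 5. Myo6 was at 40.7 and 53.1 TPM in Normal crypts, at 48.4 and 29.3, 37.4 and 29.3, 10.8 and 11.5, and 79.9 and 71.5 TPM on days 1, 2, 3 and 5 after IR, and at 56.2 and 40.5, 53.1 and 61.2, 40.1 and 31.5, and 80.4 and 72.4 TPM under IR+VE. Myo1d was at 27.6 and 47.6 TPM in Normal crypts, at 45.4 and 23.1, 28.1 and 17.0, 3.19 and 3.50, and 74.6 and 58.4 TPM after IR, and at 59.3 and 41.3, 51.6 and 55.8, 23.9 and 16.6, and 71.3 and 55.3 TPM under IR+VE. For both genes the day 5 libraries stood above the Normal libraries with and without the compounds, and in IR crypts of day 5 this held for 48.2% of all genes tested.

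Myo1e, the motor of endocytosis and junctions, was at 7.62 and 2.82, 8.42 and 5.19, 1.43 and 1.31, and 10.9 and 10.2 TPM on days 1, 2, 3 and 5 after IR, and at 10.4 and 6.68, 17.4 and 17.5, 13.9 and 9.18, and 12.1 and 9.96 TPM under IR+VE. All 8 IR+VE libraries exceeded both Normal libraries of this gene, the libraries of day 3 that chose the genes among them. How many of all genes did so is not given here. Myo5b, the carrier of apical vesicles, was at 35.3 and 39.4 TPM in Normal crypts, at 49.4 and 35.4, 26.0 and 18.2, 4.45 and 5.24, and 61.0 and 52.6 TPM after IR, and at 65.9 and 68.3, 59.2 and 63.0, 23.7 and 22.2, and 66.5 and 60.0 TPM under IR+VE. Its replicates were the closest to each other among the 9 genes tested, with a standard error of 0.21 on the log2 scale against 0.25 to 0.68 for the rest. In such bulk samples fewer cells of a type and less RNA per cell cannot be told apart.

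Irradiation alone moved no member past the threshold on days 1, 2 or 5. On day 1, IR crypts against Normal gave differences of -0.96 (Myh9) to 0.16 (Myo5b) with a median of -0.30, where the median of all 10802 genes tested was -0.36. None of the 9 genes was called, while 1.43% of all genes were called higher and 5.48% lower (limma, 3555 genes and no member at an unadjusted p under 0.05). The IR libraries of day 1 stood apart from each other, and without replicate 1 of them 5 members were called lower, with Myh9 at -2.28, where 17.3% of all genes were called lower and 1.37% higher. On day 2 the differences ran from -1.15 (Myh9) to 0.34 (Myo1e), with a median of -0.55 against -0.61 over all genes, and again none was called, where 4.55% of genes were called higher and 26.2% lower (6484 at an unadjusted p under 0.05). Myo5b came closest on day 2 with -0.75 ± 0.21 (standard error, limma, adjusted p = 0.0082), which is short of 2-fold.

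On day 5 after IR 8 of 9 members lay above Normal, by up to 1.20 (Myo18a), and the median was 0.69 against 0.27 over all genes. None was called, while 10.2% of genes were called higher and 5.61% lower (4261 at an unadjusted p under 0.05). Myo6 at 0.69 ± 0.25 (standard error, limma, adjusted p = 0.049) and Myo5b at 0.59 ± 0.21 (adjusted p = 0.046) passed on p but not on size. Members at an unadjusted p under 0.05 were Myo1d, Myo1e, Myo5b and Myo6. Markers of other cell types moved with this contrast: the immune markers summed to 6.30 and 6.33 TPM in IR crypts of day 5 against 232 and 144 TPM in Normal, with 6 of 8 called lower, and the fibroblast markers to 11.0 and 7.48 TPM against 29.2 and 31.1 TPM, with 1 of 2 called lower. Their part in the members' values was not tested. The 4 comparisons against Normal share the Normal libraries, and each also shares its IR libraries with the IR+VE comparison of that day.

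The 3-day contrast against Normal used the libraries that chose the genes. All 9 genes were lower in IR crypts of day 3, by 1.35 (Myo1e) to 3.61 (Myh14) on the log2 scale, where 51.3% of all genes passed the thresholds as lower and 2.56% as higher and the median gene stood at -1.03. Myh9 differed by -3.54, Myo1a by -3.57, Myo7b by -3.34, Myo1d by -3.10, Myo18a by -2.93, Myo5b by -2.72 and Myo6 by -1.97. Genes of similar exon length, within 1.25-fold of each member, had medians of -1.01 to -1.37. The sum of the 10 genes was 48.1 and 59.6 TPM in these libraries and 519 and 592 TPM in Normal crypts. Immune markers summed to 71.8 and 29.2 TPM in the IR libraries and to 232 and 144 TPM in Normal. Fibroblast markers summed to 13.3 and 12.3 TPM against 29.2 and 31.1 TPM, and enterocyte markers to 7144 and 2031 TPM against 12694.5 and 6550 TPM. Their part in the members' values was not tested.

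With VPA and EPZ6438, the same day showed the reverse sign. Between IR+VE and IR crypts of day 3, Myh9 differed by 4.39, the fourth largest rise of 10802 genes, and Myo18a by 3.67, the sixth. Expressed as a ratio of mean TPM, Myh9 was 36.6-fold and Myo18a 18.5-fold higher. Myo7b differed by 2.88, Myh14 by 2.62, Myo1e by 2.37, Myo1d by 2.27, Myo5b by 2.04, Myo6 by 1.59 and Myo1a by 1.31, each short of Myh9 and Myo18a. Passing the thresholds as higher were 31.6% of all genes, and 0.0555% as lower, and the median gene stood at 0.69. Fibroblast markers summed to 22.2 and 43.9 TPM in these IR+VE crypts and to 13.3 and 12.3 TPM in the IR crypts, and their part in the members' values was not tested.

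Length of the transcript moved with this contrast. Genes of 12 kb and more had a median difference of 1.20 on day 3, those of 4500 to 6000 bp 0.88, those of 1000 to 2000 bp 0.22 and those under 1000 bp 0.10. Genes of similar length to each member had medians of 0.69 (Myo1a) to 1.20 (Myo18a), which all 9 members exceeded. After removal of each library's trend on exon length, Myh9 stood at 3.16, Myo18a at 2.39, Myo7b at 1.88, Myh14 at 1.59, Myo1e at 1.42, Myo1d at 1.28 and Myo5b at 0.91, whereas Myo1a at 0.55 and Myo6 at 0.39 were left with the smallest differences. Of the 25 long transcripts without a motor that were tested, such as Dync1h1 (3.08), Srrm2 (3.06), Ubr4 (3.01) and Sptan1 (3.01), 23 passed as higher, and their median of 2.35 was close to the median of 2.37 of the members. The part of transcript length in the 3-day values was not tested.

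The balance was also taken per library. The mean of 1723 genes over 8 kb minus that of 1894 genes under 2 kb, each relative to all libraries, was -0.77 and -0.73 (log2) in IR crypts of day 3, 0.37 and -0.12 in IR+VE crypts of day 3, -0.07 and -0.56 in IR crypts of day 2, 0.32 and 0.38 in IR+VE crypts of day 2, 0.19 and -0.43 in IR crypts of day 1, and -0.45 and -0.11 in Normal crypts. It was 0.47 and 0.32 in IR+VE crypts of day 5, 0.46 and -0.09 in IR+VE crypts of day 1, and 0.45 and 0.35 in IR crypts of day 5. Over the 18 crypt libraries, which share this balance, log2(TPM + 1) of the members correlated with it at r = 0.91 for Myh9, Myo18a and Myo1e, 0.88 for Myo6, 0.85 for Myh14, Myo1d and Myo7b, 0.80 for Myo5b and 0.64 for Myo1a. These 18 include the 4 libraries of day 3 that chose the genes, and over the 14 without day 3 the 9 correlations ran from 0.59 (Myo1a) to 0.94 (Myo1d), with 0.89 for Myh9 and Myo18a. Levels of mt-Atp8 moved too, from 52862 and 88148 TPM in Normal to 207735 and 243105 TPM in IR crypts of day 3. Neither was tested as a part of the members' values.

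**Figure D3:**
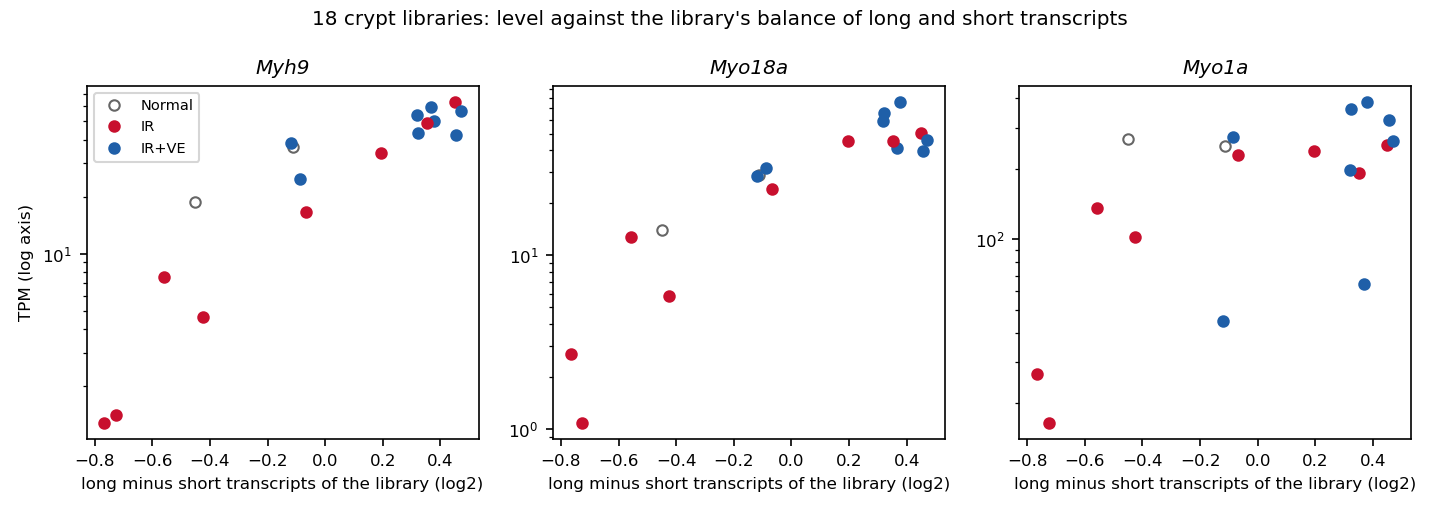
TPM (log axes) of Myh9, Myo18a and Myo1a in each of the 18 crypt libraries against the library's mean log2 level of transcripts over 8 kb minus those under 2 kb. Myh9 and Myo18a climb along the axis, while the IR+VE day 3 libraries of Myo1a (64.4 and 44.8 TPM) lie below the rest at the same balance.

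Days 1, 2 and 5 were not used to choose the genes, and the response to VPA and EPZ6438 was tested there, in a fit whose spread is drawn from all 18 crypt libraries, those of day 3 included. On day 2 all 9 members were higher in IR+VE than in IR crypts, by 0.77 (Myo6) to 1.96 (Myh9), and 4 were called: Myo7b (1.75 ± 0.51, standard error, limma, adjusted p = 0.041), Myo5b (1.45 ± 0.21, adjusted p = 0.022), Myo1e (1.27 ± 0.34, adjusted p = 0.036) and Myo1d (1.25 ± 0.34, adjusted p = 0.036). Of all genes 8.31% were called higher and 0.0648% lower. In ratios of mean TPM, Myo7b was 3.07-fold, Myo5b 2.76-fold, Myo1e 2.56-fold and Myo1d 2.38-fold higher in IR+VE crypts. For each of the 9 genes both IR+VE libraries exceeded both IR libraries, as they did for 67.7% of all genes tested. The estimates of Myh9 (1.96 ± 0.66, adjusted p = 0.062) and Myo18a (1.95 ± 0.68, adjusted p = 0.068) were larger but not called, nor were those of Myh14 (1.46, adjusted p = 0.096) and Myo1a (1.07, adjusted p = 0.054), and Myo6 passed on p (adjusted p = 0.049) but not on size. Smooth muscle markers summed to 1.18 and 5.09 TPM in IR+VE and 0.173 and 0.374 TPM in IR, and stem cell markers to 31.4 and 37.9 against 21.0 and 25.1 TPM. Endothelial markers were also higher, mitochondrial genes summed to 257764 and 232395 against 346841 and 277444 TPM, and fibroblast, Paneth and goblet sums overlapped. Their part in the members' values was not tested.

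These day 2 calls depended on the processing. The median of all genes was 0.42 on day 2 and no member was called once this shift was taken out by quantile normalization (all-gene median -0.03) or scaling to the 75th percentile (0.05), or once mitochondrial genes or the length trend were removed; in the last of these Myh9 stood at 1.14, Myo7b at 1.14, Myo18a at 1.07, Myo5b at 0.72 and Myo6 at -0.03. Of all 10802 genes, 898 were called higher before and 0 under each of these settings. Similar-length genes had medians of 0.42 (Myo1a) to 0.89 (Myo18a), and 8 of 9 members lay above the value the length trend gives for them, Myo6 being the exception. Without replicate 2 of the IR libraries, without either IR+VE library of day 2, or without the 4 libraries of day 3, none was called.

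**Figure D4:**
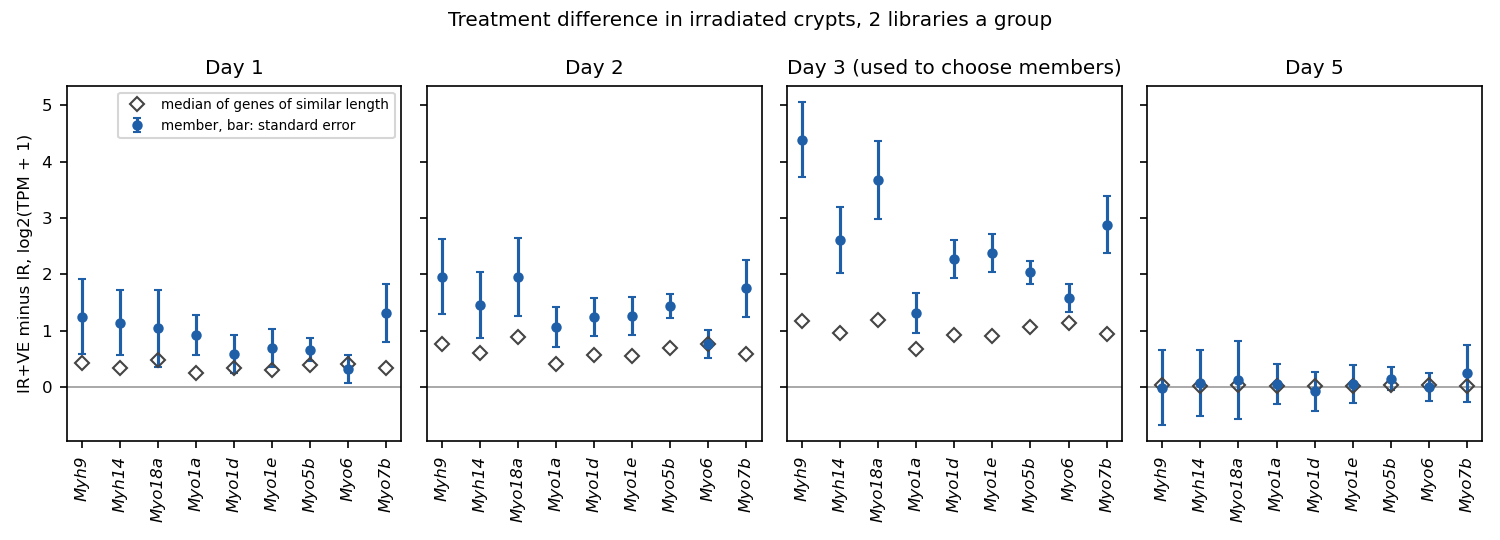
Difference between IR+VE and IR crypts (log2(TPM + 1), points with the standard error) for 9 members on each day, with the median of genes of similar exon length as open diamonds. Differences run from 0.77 to 1.96 on day 2 and from -0.07 to 0.25 on day 5, and day 3 chose the genes.

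On day 1 all 9 members were above IR in the mean, from 0.33 (Myo6) to 1.32 (Myo7b), and none was called (limma, 1424 of all genes at an unadjusted p under 0.05). Myo1a, Myo5b and Myo7b were under 0.05 before adjustment, with adjusted p in limma of 0.33, 0.26 and 0.34, and for these 3 of the 9 genes both IR+VE libraries exceeded both IR libraries, as they did for 35.7% of all genes tested. Enterocyte markers summed to 23525 and 35549 TPM in IR+VE and to 15404 and 16487 TPM in IR crypts of that day, with 14 of 14 higher in the mean and none called, and their part in the values of Myo1a and Myo7b was not tested. Of all genes 0.00926% were called higher and 0 lower. Replicate 1 of the IR libraries, with Myh9 at 34.0 TPM, stood apart from replicate 2 at 4.62 TPM; without it 6 members were called higher, Myh9 at 2.57, Myo18a at 2.42, Myh14 at 2.30, Myo7b at 2.18, Myo1a at 1.53 and Myo1e at 1.29, and so were 11.1% of all genes.

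On day 5 differences between IR+VE and IR crypts were -0.07 (Myo1d) to 0.25 (Myo7b), and none was called (limma, 178 genes and no member at an unadjusted p under 0.05). Of all genes 0.0185% were called higher and 0 lower. With standard errors of 0.58 to 0.68 for Myh14, Myh9 and Myo18a, differences of the size of their standard errors could not have been shown by these libraries.

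Taking days 1, 2 and 5 together, 1 of 9 members was called, Myo7b at 1.11 ± 0.29 (standard error, limma, adjusted p = 0.041), where 0.731% of all genes were called higher and 0 lower. The call was lost on leaving out any 1 of these libraries other than replicate 1 of IR day 1, without which Myh9, Myh14, Myo18a and Myo7b were called and 2.67% of all genes were called higher, or replicate 1 of IR day 2 (1.57% called higher). It was also lost without the libraries of day 3, with a pseudocount of 0.1, with no minimum mean, under both scalings, with mitochondrial genes or the length trend removed, and with only the groups compared in the fit. Myo5b (0.76, adjusted p = 0.013), Myo1e (0.68, adjusted p = 0.044) and Myo1a (0.68, adjusted p = 0.049) passed on p alone. Whether the response differed between these days was tested by the contrast of differences. From day 1 to day 2 it changed by 0.15 (Myo1a) to 0.91 (Myo18a), and no member and 0% of genes were called in either direction (limma, 267 genes at an unadjusted p under 0.05). From day 2 to day 5 the estimates ran from -0.75 (Myo6) to -1.97 (Myh9), with no member called, 0.0185% of genes called higher and 0.00926% lower (limma, 1784 at an unadjusted p under 0.05, Myo1d, Myo1e, Myo5b and Myo6 among them). Myo5b, at -1.29, had the smallest p of the 9, with an adjusted p of 0.27 in limma. From day 1 to day 5 the estimates ran from -0.32 to -1.26, with no member called, 0.0185% of genes called higher and 0 lower (451 at an unadjusted p under 0.05, no member among them).

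Genes that work with these myosins were followed through lists. On day 2, IR+VE against IR, 8.31% of all genes were called higher and the median gene stood at 0.42. The regulators of myosin II had 6 of 18 tested genes called higher and none lower, with a median of 0.79. Mylk (1.53), the kinase of the regulatory light chain, Ppp1r12a (1.51), a subunit of its phosphatase, and Rock2 (1.49), a kinase that promotes contraction, were among the 6, while Mprip (1.32) was not. Of 17 brush border genes 6 were called higher, among them Cobl (1.81), Baiap2l1 (1.27), the actin bundler Vil1 (1.24) and Eps8 (1.19), with a median of 0.92. Of 18 cargo adaptors 6 were called, among them Rab11fip1 (1.50), which binds Rab11, and the Myo6 adaptors Optn (1.44) and Tax1bp1 (1.24), besides Git2 (1.26).

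Actins and crosslinkers had 3 of 16 called on day 2, among them Actn4 (1.25) and Zyx (1.11), with a median of 0.48. Beside these list counts, 8.31% of all genes were called higher and the median gene stood at 0.42. The list genes called higher on day 2 are among the 898 of all genes so called. None of these stayed called higher under quantile normalization, percentile scaling, or removal of mitochondrial genes or of the length trend. Light chains and calmodulins, whose transcripts are short, had 0 of 8 called and a median of 0.25 (limma). Among other myosin heavy chains 7 of 28 in the table were tested, and Myo9b (1.90 ± 0.53, adjusted p = 0.038) was the 1 called. The long transcripts without a motor had 8 of 25 called and a median of 1.28, close to the 1.45 of the members, with Ncor1 at 2.33, Plec at 1.90 and Dst at 1.78 called and Srrm2 at 1.88 not. Enterocyte markers summed to 46067 and 50168 TPM in IR+VE and 29874 and 37327 TPM in IR crypts of that day, and 1 of 14 of them was called higher. The part of enterocyte content in the members' values was not tested.

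In IR crypts of day 2 against Normal, 9 of 17 brush border genes were called higher and none lower, where 4.55% of all genes were called higher and 26.2% lower, with a median of 1.10, among them Tmigd1 (3.21), Pdzk1 (2.46) and the bundler Pls1 (1.65). The brush border motors themselves had estimates of -0.55 (Myo1a), -0.26 (Myo7b), -0.48 (Myo6) and -0.70 (Myo1d), and none was called. Other myosins had 3 of 7 called lower, Myo7a (-2.04), Myo9b (-1.81) and Myo19 (-1.13), and the long transcripts without a motor had 10 of 25 called lower, led by Srrm2 (-2.75), Dync1h1 (-2.07), Ncor1 (-1.82) and Trrap (-1.65). The difference between the lists was not tested. Enterocyte markers summed to 37327 and 29874 TPM in these IR libraries and to 12694.5 and 6550 TPM in Normal, with 8 of 14 called higher and none lower, and their part in these values was not tested.

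On day 5 after IR, against Normal, actins and crosslinkers had 6 of 16 called higher, among them Tpm2 (2.39), Actn1 (1.67) and Tpm4 (1.60), with a median of 0.81 against 0.27 over all genes. In this contrast 10.2% of all genes were called higher and 5.61% lower. Of other myosins the class I motor Myo1c (1.84) was called, and of brush border genes Eps8 (1.63) and Ezr (1.25), the membrane linker ezrin. On day 1 and on day 5, IR+VE against IR, no gene of any of the 7 lists was called, and on day 1 the medians were 0.78 for the brush border, 0.77 for the long transcripts without a motor, 0.56 for other myosins and 0.17 for light chains. On day 3, given without a test, 7 of 7 other myosins passed the thresholds as higher (median 1.83), 10 of 18 regulators (1.17), 11 of 18 cargo adaptors (1.21), 8 of 17 brush border genes (0.87), 8 of 16 actins and crosslinkers (1.03) and 0 of 8 light chains (0.18), with Mprip at 3.02, Cdc42bpb at 2.29, Mylk at 2.17 and the formin Diaph1 at 2.16 among the regulators. In IR+VE against IR of that day, 31.6% of all genes passed as higher and 0.0555% as lower, and the median gene stood at 0.69.

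The levels of the members were correlated across the 18 crypt libraries, which include the 4 libraries of day 3 that chose the genes. Among the 9 genes above the filter the 36 pairs had correlations of log2(TPM + 1) between 0.68 and 0.98, with a median of 0.91, where all pairs of 6948 genes had a median of 0.53. Over the 14 libraries without day 3 they ran from 0.50 to 0.97, with a median of 0.81 against 0.43 for all pairs. The libraries share their balance of long and short transcripts. Of these 6948 genes, whose mean reached 5 TPM, those most like Myh9 were Lrp5 (r = 0.99), Cep170b, Tacc2, Taok3 and Itpr3, all with exons of 8002 bp or more. Those most like Myo18a were Cmip (0.98), Furin, Src, Dsp and Taok3. Those most like Myo1a were Anks4b and Ush1c (both 0.98), which belong to the microvillar tip complex, then Gata6, Entpd8 and Stap2, with exons of 2569 to 6508 bp.

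In organoids the order of the genes was another one, and Myh10 stood out. It was at 0.144 to 0.325 TPM (median 0.202) in the 7 ENR libraries and at 10.0 to 39.6 TPM (median 15.8) in the 7 libraries of 8C. With both compounds left out of 8C it was at 0.138 to 0.346 TPM (median 0.243), and with both added to ENR at 16.7, 28.2 and 32.5 TPM. Leaving out one compound gave levels in between: 0.551 to 2.32 TPM (median 1.32) without VPA in 6 libraries and 0.801 to 3.39 TPM (median 1.94) without EPZ6438 in 7. The groups with both compounds did not overlap those with one, and those with one did not overlap those with none. Among all genes tested, 8C lay wholly above ENR for 13.9% and above 8C-VE for 9.17%, and ENR+VE above ENR for 19.6%. 8C-V lay wholly below 8C for 5.09% and 8C-E for 3.42%. No such share is given for single compounds against none.

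Tested against ENR, Myh10 rose by 4.03 ± 0.24 in 8C (standard error, limma, adjusted p = 1.6e-09), a 96.6-fold ratio of mean TPM, where 11.9% of all 12665 genes were called higher and 3.31% lower. In ENR+VE it rose by 4.42 ± 0.18 (adjusted p = 3.0e-08), a ratio of 120.5-fold, with 8.13% of genes called higher and 0.738% lower. Against 8C-VE, 8C held 3.99 ± 0.24 more (adjusted p = 3.2e-09), with 9.06% of genes called higher and 1.62% lower. Leaving out either compound also lowered it: 8C-V lay below 8C by -3.09 ± 0.28 (limma, adjusted p = 3.8e-06), with 1.11% of genes called higher and 4.09% lower, and 8C-E by -2.94 ± 0.29 (adjusted p = 4.4e-06), with 0.229% called higher and 3.97% lower. Mean TPM was 5.61-fold higher in 8C-V than in 8C-VE and 6.90-fold higher in 8C-E than in 8C-VE, given as ratios with no test. No other member was called in any of these 5 comparisons. The mean of 1 TPM that a gene needed to be tested was met by Myh10 only through the groups with both compounds in the comparisons with ENR and with 8C-VE, where the other group was at 0.214 and 0.248 TPM, so in those 3 comparisons its entry to the test rested on the difference itself. With no minimum mean the differences were 4.03 (8C against ENR), 4.42 (ENR+VE against ENR) and 3.99 (8C against 8C-VE), and each was called over all genes of the fit. Fibroblast markers also differed between the media, though not in every group as Myh10 did. The 8 summed to 18.9 to 28.3 TPM in 8C and 19.1 to 20.3 TPM in ENR+VE. They summed to 5.73 to 14.6 TPM in ENR, 6.24 to 11.1 TPM in 8C-VE and 4.23 to 7.36 TPM in 8C-E. In 8C-V they summed to 11.9 to 23.5 TPM, which overlapped 8C, and in 8C-EGF to 58.4 to 141 TPM, which lay above it. Of the 8 only Vim, the intermediate filament vimentin, reached the mean of 1 TPM, and it was called in 8C against ENR (1.01), 8C against 8C-VE (1.43) and 8C-E against 8C (-2.23), but not in ENR+VE against ENR (0.73) or 8C-V against 8C (-0.47). Their part in the values of Myh10 was not tested.

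The effect of the compounds was measured in replicate numbers 1 to 3 and 4 to 6 separately. In 8C against ENR, Myh10 differed by 4.58 in numbers 1 to 3 and by 3.61 in numbers 4 to 6, and in 8C against 8C-VE by 4.58 and 3.53. Leaving out VPA gave -3.39 and -2.89, and leaving out EPZ6438 gave -4.01 and -2.23. Omission of the other components left Myh10 at 7.63, 10.4 and 11.8 TPM (8C-GSK3i), 6.06, 13.9 and 14.7 TPM (8C-Pex), 11.4, 13.7 and 15.6 TPM (8C-bFGF) and 11.0, 19.3 and 20.2 TPM (8C-EGF), all overlapping 8C. The differences from 8C were -0.87 ± 0.35, -0.74 ± 0.38, -0.45 ± 0.34 and -0.19 ± 0.36 (standard errors), and none was called. The 8C libraries stood apart in sets, with Myh10 at 31.3, 18.4 and 39.6 TPM in numbers 1 to 3 and at 10.0, 14.5, 15.8 and 15.2 TPM in numbers 4 to 7. Smooth muscle markers summed to 0.306 to 0.570 TPM in the first set, to 2.50 to 4.00 TPM in the second and to 1.23 to 4.83 TPM in the groups with a component left out. Against numbers 4 to 7 alone, the differences in Myh10 were -0.44 (8C-GSK3i), -0.31 (8C-Pex), -0.02 (8C-bFGF) and 0.24 (8C-EGF), and none was called. Against numbers 1 to 3 they were -1.44, -1.31, -1.02 and -0.77, of which that of 8C-GSK3i was called (limma, adjusted p = 0.018), where 4.06% of all genes were called higher and 3.06% lower.

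Neither of its paralogues Myh9 and Myh14 was called in any of the 10 organoid comparisons. Myh9 had group means of 132 TPM (ENR+VE) to 165 TPM (8C-VE), and its largest difference in the 10 organoid comparisons was -0.31 ± 0.16 (ENR+VE against ENR, limma, adjusted p = 0.22). In 8C the 7 libraries spanned 84.6 to 170 TPM and in ENR 136 to 207 TPM, so the groups overlapped. Myh14 had means of 115 TPM (8C-EGF) to 225 TPM (8C-GSK3i), with 111 to 233 TPM in 8C and 128 to 236 TPM in ENR, and its largest differences were 0.49 ± 0.23 in 8C-GSK3i (adjusted p = 0.77) and -0.47 ± 0.22 in 8C-EGF (standard errors, limma, adjusted p = 0.41), both against 8C. Of the nonmuscle myosin II message, Myh10 held 6.62% ± 3.64 (SD, n = 7) in 8C and 7.88% ± 1.15 (SD, n = 3) in ENR+VE, and 0.0639% ± 0.0142 (SD, n = 7) in ENR. Myh9 held 48.7% ± 3.48 (SD, n = 7) in ENR, 43.4% ± 5.80 (SD, n = 7) in 8C and 53.6% ± 1.98 (SD, n = 3) in 8C-EGF, where Myh14 had its lowest share of 40.4% ± 1.00 (SD, n = 3).

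**Figure D5:**
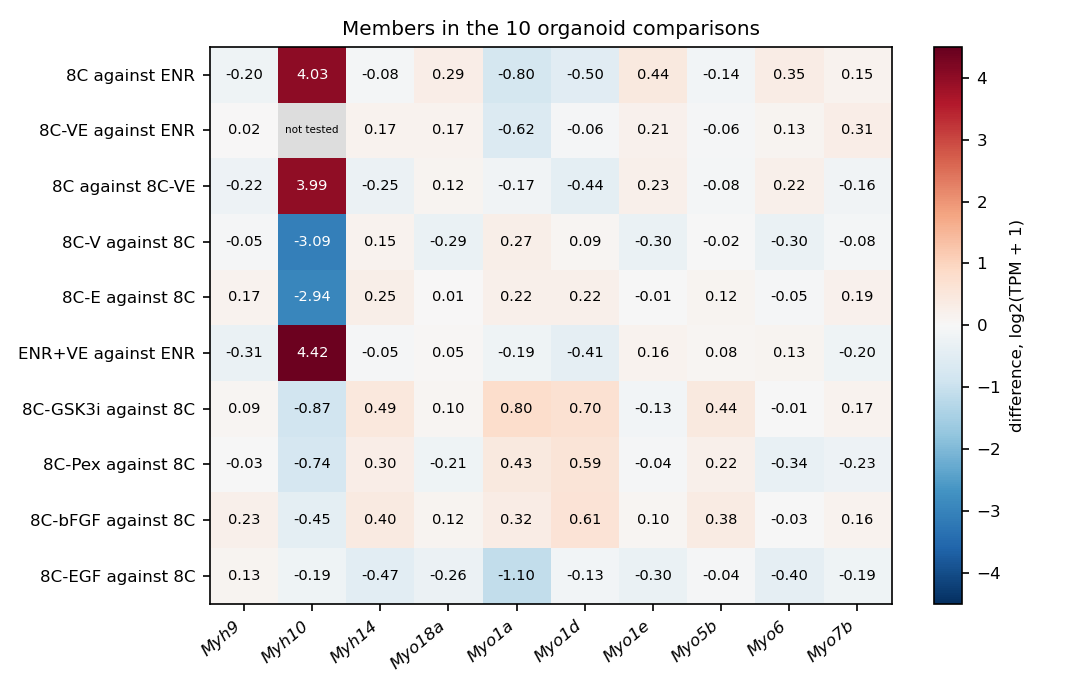
Differences in log2(TPM + 1) for the 10 genes (columns) in the 10 organoid comparisons (rows), printed in each cell, the first group named minus the second. The Myh10 column holds the 5 values past the thresholds, from -3.09 to 4.42, and the next largest value is -1.10 for Myo1a in 8C-EGF.

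Myo1a was the member whose level changed next most, and it did so in a subset of the libraries. It was at 267 to 501 TPM (median 330) in ENR, 122 to 324 TPM (median 196) in 8C and 172 to 304 TPM (median 208) in 8C-VE. The difference from ENR was -0.80 ± 0.24 in 8C (limma, adjusted p = 0.017) and -0.62 ± 0.17 in 8C-VE (adjusted p = 0.027), both short of 2-fold. It was -1.74 in replicate numbers 1 to 3 and -0.10 in numbers 4 to 6 for 8C, and -1.16 and 0.01 for 8C-VE, so it was near 0 in the second set of libraries. Enterocyte markers differed from ENR too: of 14 tested, 7 were called lower and 1 higher in 8C, with Sis at -4.78, Apoa1 at -4.52, Apoa4 at -4.19 and Lct at -2.73, and 6 were called lower in 8C-VE, with Sis at -2.59 and Lct at -2.38. They were also lower in numbers 4 to 6, where Myo1a was not. Their sums there were 2571 to 5089 TPM in 8C and 3518 to 4107 TPM in 8C-VE, against 6434 to 7290 TPM in ENR. Their part in the values of Myo1a was not tested. In 8C-VE against ENR none of the 9 members tested was called (Myh10, below 1 TPM in both, was not tested), while 1.13% of 11990 genes were called higher and 2.07% lower (limma, 2689 at an unadjusted p under 0.05).

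Without EGF, Myo1a was at 84.8, 85.0 and 108 TPM, below all 7 libraries of 8C, as were 4.28% of all genes tested. The difference of -1.10 ± 0.32 was not called (limma, adjusted p = 0.17). Against numbers 4 to 7 of 8C alone, controls chosen after seeing the data, it was -1.56 and called (limma, adjusted p = 0.0081), as 1.86% of genes were lower and 0.784% higher. Those controls leave out numbers 1 to 3 of 8C, in which Myo1a stood further below ENR. Enterocyte markers summed to 1382 to 1522 TPM in 8C-EGF, below all 7 libraries of 8C (2138 to 5089 TPM), and 1 of 13 tested was called lower, Fabp1 (-2.36), a fatty acid binding protein. Fibroblast markers summed to 58.4 to 141 TPM, above all 7 libraries of 8C, and Vim was called higher (2.03). Their part in the values of Myo1a was not tested. Against all 8C libraries no member was called, where 0.272% of genes were called higher and 0.179% lower (1626 at an unadjusted p under 0.05). Without the GSK3 inhibitor Myo1a was at 320, 333 and 390 TPM, a difference of 0.80 ± 0.32 (limma, adjusted p = 0.76) that was 1.41 against numbers 1 to 3 of 8C and 0.35 against numbers 4 to 7, and no member was called, as 0% of genes were in either direction (836 at an unadjusted p under 0.05, Myo1a and Myh10 among them). Enterocyte markers summed to 5625 to 7450 TPM there, above all 7 libraries of 8C, with 11 of 13 higher in the mean and none called, and their part in the values of Myo1a was not tested. No member was called without Pexmetinib, where 0.334% of genes were called higher and 0.148% lower (1676 at an unadjusted p under 0.05), or without bFGF, where 0% were called higher and 0.00779% lower (713 at an unadjusted p under 0.05).

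None of the remaining 6 members was called in the 10 organoid comparisons. Myo1d had means of 139 to 247 TPM, Myo7b 120 to 174 TPM, Myo6 71.3 to 95.9 TPM, Myo5b 63.9 to 89.6 TPM, Myo18a 30.5 to 40.5 TPM and Myo1e 26.8 to 38.2 TPM over the 10 media. For Myo1d, Myo6 and Myo5b the lowest mean was that of 8C-EGF, within the range of the 8C libraries. Differences of these 6 genes lay between -0.50 (Myo1d in 8C against ENR) and 0.70 (Myo1d in 8C-GSK3i against 8C), and in replicate numbers 1 to 3 alone Myo1d was called, at -1.34 in 8C against ENR (limma, adjusted p = 0.0071), where 11.9% of all genes were called higher and 5.82% lower. Genes of similar length had median differences of -0.21 to 0.13 in these comparisons. Single libraries still differed in their balance of long and short transcripts, from -0.65 to 0.57 (log2) over the 49.

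Among other genes of the family Myo5a, a vesicle motor related to Myo5b, was called higher in 8C against ENR. With a mean of 0.881 TPM in ENR, it reached the minimum mean of 1 TPM in the comparisons with ENR only through the other group, as did Rab11fip5 and Lurap1 below. It was at 0.427 to 1.16 TPM in ENR and 3.42 to 9.68 TPM in 8C, a difference of 2.02 ± 0.18 (standard error, limma, adjusted p = 1.4e-07), and Myh7b (1.02, adjusted p = 0.011) was the other of 10 tested that was called in 8C against ENR. Myo5a rose by 1.82 in ENR+VE and by 1.89 in 8C against 8C-VE, and fell by 1.13 without EPZ6438 (adjusted p = 0.00064), while the -0.52 without VPA was not called (adjusted p = 0.21). In 8C against ENR the bundler Espn (1.82), Rab11fip5 (1.82) and Lurap1 (1.28), an adaptor of Myo18a, the light chain Myl9 (1.87), Rhob (1.65) and Flna (1.60) were also called higher. Mylk (-1.48) and Pdzk1 (-1.40) were called lower. Most tested genes of the lists they come from were not called, and over all genes 11.9% were called higher and 3.31% lower. The long transcripts without a motor had 0 of 28 called and a median of -0.20 (limma, smallest adjusted p = 0.12).

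Over the 49 organoid libraries the same 36 pairs of members had correlations of 0.09 to 0.90 with a median of 0.60, where all pairs of 9902 genes had a median of 0.094. Their correlation with the balance of long and short transcripts ran from 0.08 (Myo1a) to 0.85 (Myo6), with -0.14 for Myh10. Of 9902 genes, those most like Myh9 were Prpf8 (r = 0.92), Mcm3ap, Ubr4, Uba1 and Huwe1, and those most like Myo18a were Golga2 (0.92), a Golgi protein, Ralgapa2, Slc4a4, Kif13b and Myo6. Those most like Myo1a were Tmem253 (0.93), Chp2, Tldc2, Slc26a6 and Clec2h, with exons of 641 to 5411 bp.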

How the data were processed

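Bulk RNA-seq of mouse crypts and organoids was analysed from 1 table of 29579 genes and 67 libraries. Per the study's methods and the submitters' processing notes, the authors trimmed reads with Trimmomatic 0.39, aligned them to mm10 with STAR 2.7.3a and counted with featureCounts (version not given in the sources used here). The deposited values are TPM, made by the authors from counts and gene lengths whose source is not given in the sources used here, and strand is not stated, so reads of overlapping genes cannot be told apart. Depth is unknown. Here log2(TPM + 1) was fitted with limma 3.58.1 in R 4.3.3 (empirical Bayes with trend and robust options) on genes whose mean over the libraries reached 1 TPM. The 9 crypt groups shared 1 fit, and organoid groups were fitted in pairs. A call needed a change of 2-fold or more together with an adjusted p (Benjamini-Hochberg) below 0.05. The fitting was tested on simulated data. Exon lengths came from GENCODE vM21 and matched 29574 genes.

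The members and lists were chosen with earlier results of these data known. All 10 members are named, with up to 4 genes of each list by the size of the change, and for Myh9, Myo18a and Myo1a the 5 genes of at least 5 TPM that correlate best, predicted genes skipped. Genes beyond these 4 per list were named after their values were seen. The replicate numbers pair the libraries, by correlations of their deviations in these data, in 8C-VE against ENR (lowest 0.31) and 8C-V against 8C (lowest 0.11). Alternatives were another pseudocount, other filters, 3 other scalings, removal of the length trend, a replicate block, other sets of libraries and leaving out each replicate. Some genes of the lists are not reported here.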

Additional observations from a re-analysis of the deposited data

Results flagged for a closer look

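Of 50 groups of members tested for a library far from the others, 3 had one, and chance gives about 1 in 20. Myh9 was at 84.6 TPM in replicate 2 of 8C, where the next of the 7 libraries was at 140 TPM, a gap of 0.653 of the group's range. Myo1a was at 349 TPM in replicate 7 of 8C-E, with the next at 248 TPM, a gap of 0.599 of the range. Myo1e was at 49.1 TPM in the same library, with the next at 36.5 TPM, a gap of 0.599 of the range.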

How the results depend on the processing

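Myh10 was called in the same direction in its 5 organoid comparisons under every alternative run, with ranges of 3.61 to 5.93 (8C against ENR), 3.53 to 5.79 (8C against 8C-VE), -3.78 to -2.89 (8C-V against 8C), -4.01 to -2.23 (8C-E against 8C) and 4.16 to 6.33 (ENR+VE against ENR). No member that was called changed sign, but estimates of members that were not called did so under at least 1 alternative for 8 of 9 in IR day 1 against Normal, 7 of 9 in IR+VE against IR on day 5 and 7 of 9 in 8C against ENR. The crypt calls were less stable, and the cause was not tested. Of the 4 members called higher on day 2, IR+VE against IR, the count was 1 with no minimum mean, 0 with quantile normalization, 75th percentile scaling, mitochondrial genes removed or the length trend removed, 8 with only the groups compared in the fit (10.8% of all genes called higher), 7 with the replicate block (9.08%), and 0 to 5 on leaving out each replicate (11.5% where it was 5, without IR day 2 replicate 1). The 1 member called over days 1, 2 and 5 together became 0 with a pseudocount of 0.1, no minimum mean, those 2 scalings, mitochondrial genes removed, the length trend removed or only the groups compared, and 0 to 4 on leaving out each replicate (4 without IR day 1 replicate 1, with 2.67% of all genes called higher). Without the day 3 libraries, an alternative chosen after seeing the data, both counts were 0. Leaving out each replicate gave 0 to 5 for IR day 1 against Normal, 0 to 1 for IR day 2 (1 without Normal replicate 1, where 32.5% of all genes were called lower, or IR day 2 replicate 1, where 25.8% were) and for IR day 5 against Normal (1 without Normal replicate 2, where 14.6% were called higher), 0 to 6 for IR+VE against IR on day 1, and 0 to 1 for the change in that response from day 1 to day 5, with the highest counts of these and of IR day 1 against Normal without IR day 1 replicate 1 (17.3% called lower in IR day 1 against Normal, 11.1% higher in IR+VE against IR on day 1, and 1.20% lower in the change). For comparisons with no member called otherwise, quantile normalization gave 1 for IR day 2 against Normal (9.58% of all genes called higher and 7.77% lower), and only the groups compared gave 2 for IR day 5 against Normal (9.82% and 5.72%). In organoids, replicate numbers 1 to 3 alone gave 3 members for 8C against ENR (11.9% of all genes called higher and 5.82% lower), 1 for 8C-VE against ENR (1.93% and 4.78%), 2 for 8C against 8C-VE (10.3% and 2.20%), 3 for 8C-GSK3i (4.06% and 3.06%), 2 for 8C-Pex (3.38% and 2.87%) and 1 for 8C-bFGF (3.16% and 2.37%) against 8C. The replicate block gave 3 for 8C-GSK3i (3.45% and 2.21%), 2 for 8C-Pex (2.44% and 1.45%) and 1 for 8C-bFGF (2.57% and 1.50%), where the numbers did not pair the libraries, and it changed no call where they did. All 10 groups in 1 fit gave 1 for 8C-EGF (0.562% and 0.491%), as did 8C numbers 4 to 7 as the only controls (0.784% and 1.86%), chosen after seeing the data. With the Normal numbers crossed, chosen after seeing the data because same-numbered libraries deviated in opposite directions (-0.19 and -0.15), 0 members were called for IR day 1 and IR day 2 against Normal. With 2 libraries in each crypt group the spread is poorly known, and unknown depth limits what can be said of Myh10 below 1 TPM.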
